A study of Mus musculus with 25 samples.

Results

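Cytochromes P450 are haem monooxygenases that insert an oxygen atom into lipophilic molecules, drawing electrons from partner proteins such as Por, the reductase of the endoplasmic reticulum, or from ferredoxin in mitochondria. In the mature liver, members of the Cyp1, Cyp2 and Cyp3 families clear drugs and other foreign compounds, members of the Cyp4 family hydroxylate fatty acids and eicosanoids, Cyp7, Cyp8 and Cyp27 enzymes make bile acids from cholesterol, and Cyp26 enzymes degrade retinoic acid, a ligand of nuclear receptors. Fetal hepatic progenitors are known for low levels of the drug-metabolizing members, which appear as hepatocytes mature.

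The family was taken as every gene of the count table whose symbol begins with Cyp and a digit, leaving out Cyp51, a general sterol synthesis enzyme. This gave 104 of the 24984 genes in the table. By the naming of their families, 51 members were placed among the drug-metabolizing enzymes, 29 among the fatty acid and eicosanoid enzymes, 12 among the sterol, bile acid and steroid enzymes, 3 among the retinoid enzymes and 3 among the vitamin D enzymes, while 1 was an orphan and 5 were antisense genes or pseudogenes.

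RNA sequencing was carried out on BMEL cells (bipotential mouse embryonic liver) and on tumours grown from BMEL cells transformed with Ras. The parental BMEL cells are a clonally derived line of untransformed hepatic progenitors from the liver of a female C57BL/6 and C3H embryo. The cultured groups, with 3 libraries each, were BMEL WT (the empty vector control of the labels), RasLOW and RasHIGH, the last 2 expressing human HRas with the G12V change from a bicistronic vector and sorted by the brightness of its fluorescent protein into populations that overlap. The 4 sorted groups came from 4 athymic nude mice, which lack T cells, each giving tumour cells and stroma from a tumour in the liver and from another in the peritoneum. Tumour cells were the fluorescent fraction and stroma the fraction without fluorescence, and the labels do not say which Ras population had been injected into these mice.

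Total counts ran from 20818989 to 51241336 per library, and the level that 3 counts can show lay between 0.0576 and 0.141 CPM (counts scaled to library size with TMM factors over all libraries), which covers counting error only. The labels do not say that the cultured replicates were separate cultures, so their p-values measure the spread between these libraries. Lane 3 of the sequencer held BMEL WT replicates 1 and 2, while lane 4 held BMEL WT replicate 3 and all Ras libraries. The defining epithelial marker Epcam was at or near 0 in cultured and tumour cells (at most 0.838 CPM), whereas the summed epithelial markers, mainly keratins, lay between 6660 and 10700 CPM there. In the stroma this sum was between 591 and 1450 CPM.

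Promoter sequences are shown for the retinoic acid hydroxylases Cyp26a1 and Cyp26b1, which carried the largest differences in the retinoid group. They are also shown for Cyp1a1 and Cyp1b1, the best known targets of the aryl hydrocarbon receptor Ahr. Both were higher in every cultured library than in every tumour cell library, and the share of all genes that separate in this way is not reported here. Each promoter is the RefSeq sequence on GRCm38.p6 from 250 bases before to 50 bases after the start, written 5′ to 3′ on the strand of the gene. Capitals mark the searched motifs, which were GCGTG, the core of the element bound by Ahr with Arnt, and AGGTCA or AGTTCA repeated in the same direction with 5, 2 or 1 bases between, the arrangement known for retinoic acid receptors, all on both strands.
Cyp26a1, chr19:37697558-37697857, plus strand: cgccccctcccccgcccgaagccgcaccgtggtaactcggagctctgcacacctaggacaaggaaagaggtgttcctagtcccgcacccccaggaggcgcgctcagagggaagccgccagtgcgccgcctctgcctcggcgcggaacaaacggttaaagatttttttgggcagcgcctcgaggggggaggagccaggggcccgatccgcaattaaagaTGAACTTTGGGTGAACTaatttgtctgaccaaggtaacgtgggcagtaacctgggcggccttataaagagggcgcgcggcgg
Cyp26b1, chr6:84593761-84594060, minus strand: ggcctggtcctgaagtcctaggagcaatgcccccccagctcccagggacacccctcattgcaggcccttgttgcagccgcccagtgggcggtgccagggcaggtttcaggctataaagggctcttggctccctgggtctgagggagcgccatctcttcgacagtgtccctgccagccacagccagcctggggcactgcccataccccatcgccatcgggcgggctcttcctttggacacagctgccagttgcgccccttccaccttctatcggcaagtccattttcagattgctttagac
Cyp1a1, chr9:57697363-57697662, plus strand: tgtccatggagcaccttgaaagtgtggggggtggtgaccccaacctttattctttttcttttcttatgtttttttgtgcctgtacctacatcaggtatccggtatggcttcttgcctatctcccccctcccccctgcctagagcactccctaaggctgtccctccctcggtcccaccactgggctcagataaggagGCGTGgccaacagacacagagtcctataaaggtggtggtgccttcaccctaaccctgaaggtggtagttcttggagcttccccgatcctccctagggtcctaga
Cyp1b1, chr17:79715012-79715311, minus strand: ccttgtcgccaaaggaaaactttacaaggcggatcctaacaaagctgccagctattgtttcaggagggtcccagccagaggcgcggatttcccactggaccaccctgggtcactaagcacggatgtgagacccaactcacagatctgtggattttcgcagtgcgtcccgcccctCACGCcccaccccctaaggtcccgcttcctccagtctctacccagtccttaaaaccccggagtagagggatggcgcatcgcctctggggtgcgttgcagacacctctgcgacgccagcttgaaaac

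The repeat with 5 bases between stood at position -32 of the Cyp26a1 promoter and in no other of the 87 promoters of 77 Cyp genes that could be matched. It was found in 13 of all 32851 promoters (0.0396%). The Cyp26b1 window held none of the searched letters. GCGTG stood at position -54 in Cyp1a1 and at position -76 in Cyp1b1 (there on the opposite strand), and it was present in 17 of the 87 Cyp promoters against 32.4% of all promoters. No Cyp promoter held the repeats spaced by 2 or 1 bases, which were present in 13 (0.0396%) and 27 (0.0822%) of all promoters.

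Most of the family was close to silent in every group. Of the members, 11 had no count in any library, 74 stayed under 1 CPM in the mean of every group, and 30 reached 1 CPM in at least 1 group. Of those 30, 12 did so in stroma alone and 9 in every group. The drug-metabolizing class had 4 of 51 members at 1 CPM or more in each of BMEL WT, RasLOW and RasHIGH, 1 in liver tumour cells, 4 in peritoneal tumour cells, 5 in liver stroma and 4 in peritoneal stroma. The fatty acid class kept between 5 and 7 of 29 members at that level in cultured and tumour cells, and 10 and 11 in liver and peritoneal stroma.

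**Figure D1:**
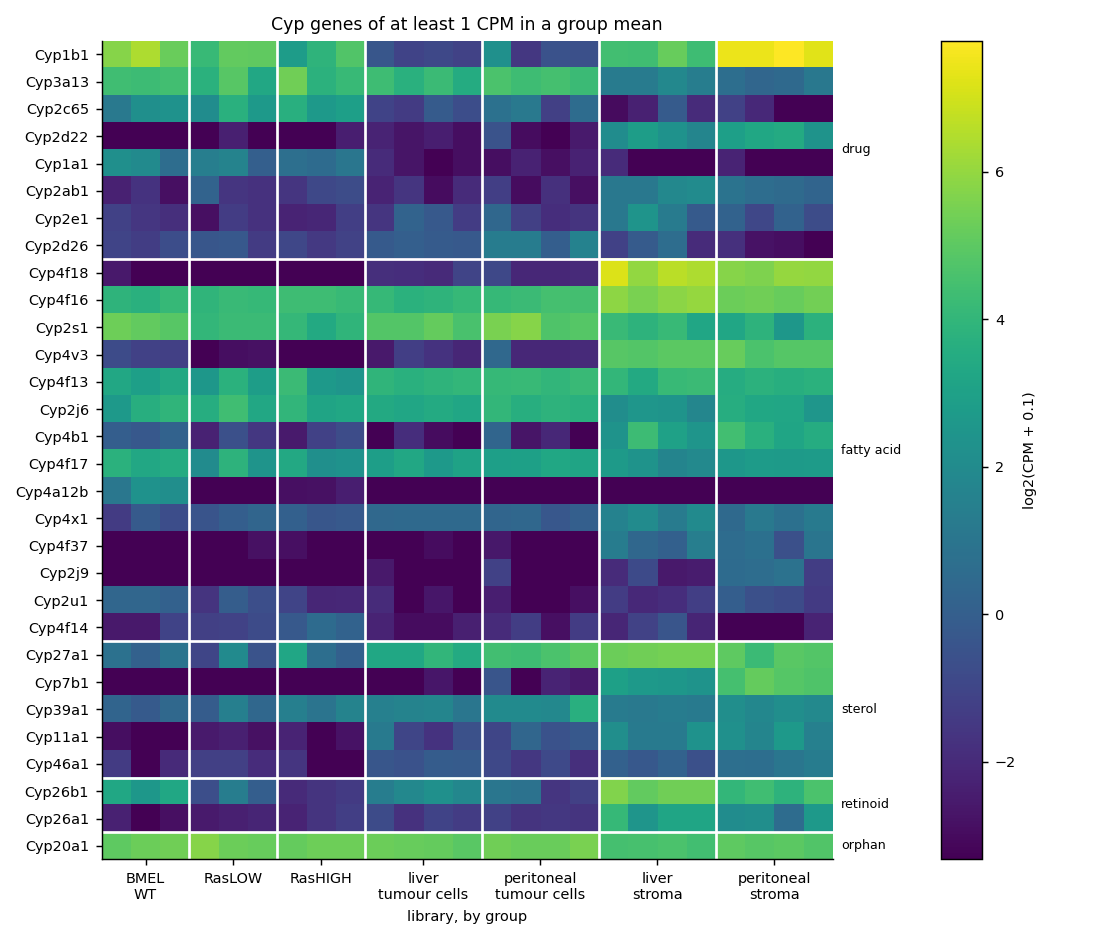
Level of the 30 Cyp genes that reached a mean of 1 CPM in at least 1 group, as log2(CPM + 0.1), in each of the 25 libraries (columns, by group), with genes in rows by class. Cyp20a1, Cyp4f16, Cyp2s1 and Cyp4f13 are present throughout, while Cyp4f18, Cyp7b1, Cyp4v3 and Cyp26a1 are bright in the stroma columns.

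Compared per length of the annotated exons (CPM per kb, from a GENCODE annotation of NCBIM37 that matched 102 of the 104 members), the orphan enzyme Cyp20a1 was the highest member in all 5 cultured and tumour groups. Its level was 16.6 ± 2.09 CPM per kb in BMEL WT (SD, n = 3), 18.8 ± 4.34 in RasLOW, 16.9 ± 1.22 in RasHIGH, 15.3 ± 1.51 in liver tumour cells (n = 4) and 17.7 ± 1.82 in peritoneal tumour cells. These ranges overlap. Cyp1b1 stood next in BMEL WT, with 11.4 ± 4.61 CPM per kb, and Cyp27a1 was next in liver (6.14 ± 1.53) and peritoneal tumour cells (12.9 ± 2.84). In liver stroma Cyp4f18, an enzyme that hydroxylates leukotriene B4 in leukocytes, led with 52.9 ± 18.3 CPM per kb, and in peritoneal stroma Cyp1b1 led with 34.5 ± 5.37, beside Cyp4f18 with 31.2 ± 3.95.

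Of members that mark mature hepatocytes, Cyp1a2, Cyp2a5, Cyp2c29, Cyp3a11, Cyp3a25, Cyp7a1 and Cyp8b1, which clear foreign compounds and steroids or take part in bile acid synthesis, had no count in BMEL WT, and Cyp2e1, the ethanol-oxidizing enzyme, was low but above the level of 3 counts, at 0.258 ± 0.0834 CPM (SD, n = 3). The regulators of this programme differed among themselves. Hnf4a, a master regulator of hepatocyte genes, was at 402.5 CPM in BMEL WT, whereas the foreign compound receptors Nr1i3 and Nr1i2 were at 0 and 0.86 CPM. Por was at 128.2 CPM in BMEL WT and 439.6 CPM in liver tumour cells.

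The comparison of the cultured groups addresses how the dose of the oncogene alters the progenitors. In RasLOW cells, 4 of the 21 Cyp genes that passed the filter on low counts fell and none rose, against 5.96% of all 12307 genes tested that were called in either direction, with 1.92% higher and 4.05% lower (edgeR quasi-likelihood test, Benjamini-Hochberg adjusted p < 0.05). In RasHIGH cells 7 of 20 were called, 5 lower and 2 higher, against 22.6% of all genes called, with 10.9% higher and 11.7% lower. Cyp26b1, Cyp2s1 and Cyp4a12b were among those that fell in both. The median log2 fold change over the Cyp genes tested was -0.11 in RasLOW and -0.14 in RasHIGH, against 0.01 and -0.02 over all genes. Both comparisons share the BMEL WT libraries. Mesothelial markers, of which 4 were listed, had sums between 1170 and 1350 CPM for BMEL WT, between 930 and 2640 CPM for RasLOW and between 555 and 773 CPM for RasHIGH, with 1 and 3 of 3 tested lower, and their part in the Cyp values was not tested.

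Cyp26b1, which inactivates retinoic acid in embryonic tissues (6:84521938-84543740 on NCBIM37, minus strand), was at 9.635, 5.785 and 9.694 CPM in the BMEL WT libraries, at 0.539, 2.49 and 0.892 CPM in RasLOW and at 0.152, 0.215 and 0.271 CPM in RasHIGH. Every Ras library was below every BMEL WT library, and every RasHIGH library below every RasLOW library. In either direction, 3510 of all 12307 genes tested had no overlap between RasLOW and BMEL WT, and 5290 of 12331 between RasHIGH and BMEL WT. Cyp26b1 fell 6.42-fold in RasLOW (log2 fold change -2.68 ± 0.59, adjusted p = 0.042, edgeR) and 40.0-fold in RasHIGH (-5.32 ± 0.39, adjusted p = 0.000378, edgeR). In RasHIGH the call held in all 12 alternative analyses, with log2 fold changes between -5.53 and -5.1, while in RasLOW it was lost in 7 of 12, with the highest adjusted p 0.528 within lane 4, and the RasLOW value was -3.6 without RasLOW replicate 2. Its sister Cyp26a1 stayed near the floor, with BMEL WT libraries between 0 and 0.105 CPM, RasLOW libraries between 0.0719 and 0.122 CPM and RasHIGH libraries between 0.114 and 0.316 CPM, and Cyp26c1 had 2 counts in RasHIGH and none in the other cultured groups.

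Among 14 retinoid handling genes listed beside the family, 8 could be tested against BMEL WT in each of RasLOW and RasHIGH. Over all genes tested, 5.96% were called in RasLOW and 22.6% in RasHIGH. Aldh1a1, which makes retinoic acid from retinal, was at 177.1 CPM in BMEL WT and fell to 22.6 CPM in RasLOW (log2 fold change -2.98 ± 0.65, adjusted p = 0.0418, edgeR) and 27.4 CPM in RasHIGH (-2.73 ± 0.24, adjusted p = 0.000611, edgeR). Rbp4, the carrier of retinol in plasma, rose from 99.9 to 414.1 and 572.4 CPM (2.02 ± 0.26 and 2.47 ± 0.32, adjusted p = 0.00951 and 0.00248, edgeR). These were the only 2 called in RasLOW. In RasHIGH the retinol transporter Stra6 also fell, from 4.05 to 0.0588 CPM, and the receptor Rarg rose, from 54.6 to 95.1 CPM (adjusted p = 0.00163 and 0.0389, edgeR), which made 2 higher and 2 lower of 8.

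Cyp1b1, which oxidizes polycyclic hydrocarbons, oestrogens and retinoids (17:80106234-80114401 on NCBIM37, minus strand), was at 54.6, 85.1 and 37.8 CPM in BMEL WT, at 17.97, 34.7 and 33.1 CPM in RasLOW and at 7.01, 14.9 and 26.7 CPM in RasHIGH. No Ras library reached the lowest BMEL WT library, and the RasLOW and RasHIGH ranges overlapped. It fell 3.73-fold in RasHIGH (-1.9 ± 0.51, adjusted p = 0.0352, edgeR), and the value in RasLOW was -1.07 ± 0.36 (adjusted p = 0.133, edgeR; 0.0318 by DESeq2). The RasHIGH call was lost in 5 of 12 alternatives, among them without BMEL WT replicate 1 or 2 or RasHIGH replicate 2 and within lane 4, where the value was -1.26 (adjusted p = 0.477, edgeR). Cyp1a1 was at 3.28 ± 1.62, 2.18 ± 1.1 and 1.62 ± 0.287 CPM (SD, n = 3), with adjusted p = 0.604 and 0.142 (edgeR). The receptor Ahr was at 72.9, 51.5 and 51.1 CPM, and none of the 4 other Ahr targets listed (Nqo1, Tiparp, Aldh3a1, Ugt1a6a) was called in either comparison.

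In the fatty acid class 3 of 11 members tested fell in RasLOW, and in RasHIGH 3 of 10 fell and 1 rose. Over all genes tested, 4.05% fell in RasLOW, while 11.7% fell and 10.9% rose in RasHIGH. Cyp2s1, an epithelial enzyme of eicosanoid and retinoid oxidation, was at 39.9, 34.4 and 29.9 CPM in BMEL WT, 16.2, 18.9 and 18.6 CPM in RasLOW and 16.9, 10.6 and 15.1 CPM in RasHIGH. The Ras libraries all lay below the control libraries, and a lack of overlap was common among all genes, as given above for Cyp26b1. Cyp2s1 fell 1.98-fold in RasLOW (-0.99 ± 0.17, adjusted p = 0.0219, edgeR) and by 1.33 ± 0.21 on the log2 scale in RasHIGH (adjusted p = 0.00573, edgeR). Within lane 4 its values were -0.78 and -1.12 (adjusted p = 0.75 and 0.197, edgeR). The RasLOW call was lost in 7 of 12 alternatives, namely within lane 4, with replicate numbers blocked, and without any single library of BMEL WT or RasLOW replicate 1 or 3, while the RasHIGH call was lost within lane 4 alone.

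Cyp4a12b, a fatty acid hydroxylase known from male kidney and liver, had 318 counts over the BMEL WT libraries (1.99, 4.89 and 4.4 CPM), 0 in RasLOW and 4 in RasHIGH. It was thus at least 30.9-fold lower in RasLOW, against a floor of 3 counts in each library, and the RasHIGH value was -5.99 ± 0.59 on the log2 scale (adjusted p = 0.000982, edgeR). Its near-identical copy Cyp4a12a had 29, 1 and 7 counts in these groups. How the authors' counting divided reads between such copies is not stated in the sources used here, so the pair is uncertain as to which copy the reads came from. Neither gene had more than 1 count in all sorted groups together.

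Of the remaining calls, Cyp2u1, a long chain fatty acid hydroxylase, was at 1.15, 1.17 and 0.999 CPM in BMEL WT and at 0.379, 0.129 and 0.135 CPM in RasHIGH, where it fell (-2.36 ± 0.48, adjusted p = 0.0132, edgeR). The call was lost in 3 of 12 alternatives, without BMEL WT replicate 2, without RasHIGH replicate 2 and within lane 4, with the highest adjusted p 0.275 (edgeR) in lane 4, and the value was -3.04 without RasHIGH replicate 1. Cyp4v3 was low throughout, with 33 counts in BMEL WT, 2 in RasLOW and 0 in RasHIGH, a ratio of 16.2 in RasLOW with a counting interval of 4.13 to 139, and its call in RasLOW was lost in 6 of 11 alternatives. The 2 members that rose in RasHIGH were also low. Cyp39a1, the oxysterol hydroxylase of bile acid synthesis, went from 1.04 ± 0.235 to 2.48 ± 0.603 CPM (1.21 ± 0.34, adjusted p = 0.0421, edgeR) and lost the call in 9 of 12 alternatives. Cyp4f14, a leukotriene hydroxylase, went from 0.17 ± 0.174 to 1.06 ± 0.311 CPM (2.59 ± 0.67, adjusted p = 0.0319, edgeR) and lost it in 5 of 12, with a value of 3.81 without BMEL WT replicate 3. The drug-metabolizing Cyp2c65 was at 3.89 ± 1.51, 7.86 ± 4.66 and 8.79 ± 3.31 CPM in the 3 groups (SD, n = 3), with adjusted p = 0.0782 in RasHIGH (edgeR).

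**Figure D2:**
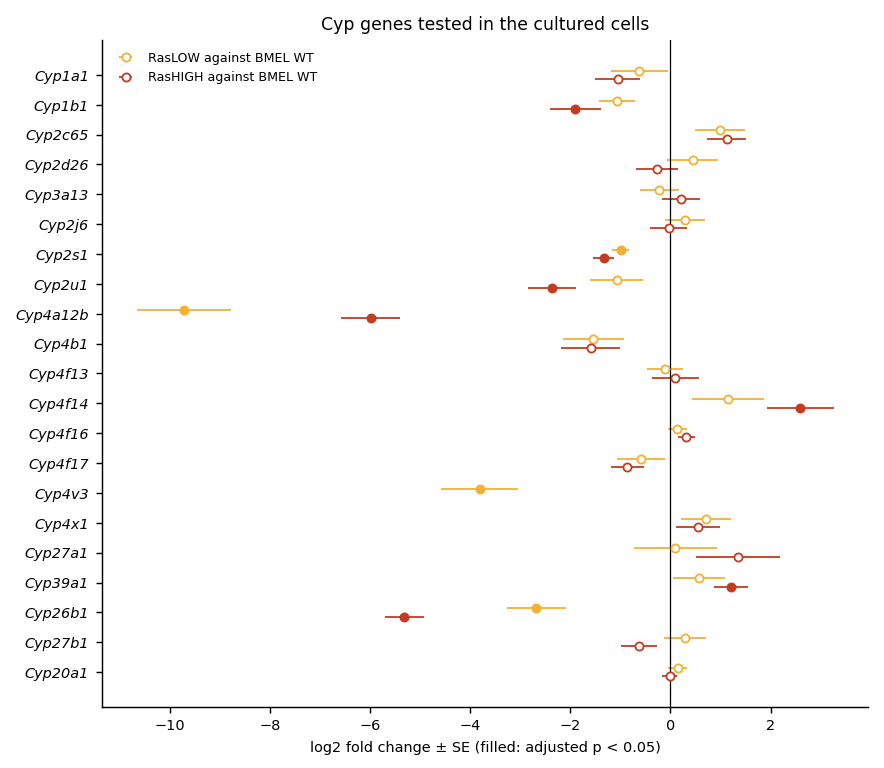
Log2 fold change with its SE against BMEL WT for each Cyp gene tested in RasLOW (yellow) and RasHIGH (red), with filled points at an adjusted p under 0.05. Cyp26b1 lies at -2.68 and -5.32, Cyp2s1 at -0.99 and -1.33, and the Cyp4a12b point in RasLOW rests on 0 counts and gives no size.

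Several members varied more within the Ras groups than between groups. RasHIGH replicate 1 stood above its group in Cyp3a13 (41.7 against 13.8 and 17.7 CPM), Cyp27a1 (9.51 against 1.51 and 0.947 CPM) and Cyp4f13 (19.1 against 6.29 and 5.5 CPM). RasLOW replicate 2 stood above its group in Cyp3a13 (29.9 against 13.3 and 10.0 CPM), Cyp27a1 (3.84 against 0.395 and 0.608 CPM) and Cyp4f17 (14.2 against 3.99 and 5.19 CPM). Cyp3a13, a member of the drug-clearing Cyp3a family expressed mainly in gut, was at 20.4, 19.5 and 21.1 CPM in BMEL WT, inside both Ras ranges. None of these was called in the cultured groups.

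Between RasHIGH and RasLOW none of 18 Cyp genes was called, against 0.0752% of all genes tested (0.0585% higher and 0.0167% lower, edgeR). At an unadjusted p under 0.05 there were 2, against 9.78% of all genes, DESeq2 called 0, and 1 passed with all 25 libraries in 1 fit. By the thresholds of the study (an unadjusted p under 0.01 and a log2 fold change beyond 1.5), 1 member passed against 2.12% of all genes. Cyp26b1 was nearest, at -2.62 ± 0.71 on the log2 scale (adjusted p = 0.241, edgeR), and its 2 groups did not overlap, as for 15.7% of all genes tested. The RasLOW count was the least stable of the cultured comparisons. It was 1 without any single library of BMEL WT or without RasLOW replicate 1 or 3, 8 without RasLOW replicate 2, and 0 within lane 4. The RasHIGH count was 4 without BMEL WT replicate 2, 3 without RasHIGH replicate 2 and 2 within lane 4, where Cyp26b1 and Cyp4a12b were the members left.

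The counts of this paragraph stand beside 5.96% of all genes tested called in RasLOW and 22.6% in RasHIGH, in either direction. Of the electron donors, none of 8 was called in RasLOW. In RasHIGH the cytochrome Cyb5a fell from 214.3 to 105.7 CPM (-1.06 ± 0.14, adjusted p = 0.00265, edgeR) and Pgrmc1, a haem-binding P450 partner, from 169.1 to 111.2 CPM (-0.65 ± 0.18, adjusted p = 0.0417, edgeR). Por was not called. Of 11 sensors and liver regulators tested, none was called in RasLOW, while 2 were higher in RasHIGH and none was lower. Among these 2, the bile acid receptor Nr1h4 rose from 13.3 to 23.3 CPM (0.77 ± 0.22, adjusted p = 0.0422, edgeR). Of 7 conjugation and hydrolysis genes, the epoxide hydrolase Ephx1 and the glutathione transferase Gstm1 fell in RasHIGH, from 305.7 to 72.3 CPM and from 58.0 to 15.6 CPM (adjusted p = 0.0125 and 0.034, edgeR), and none was called in RasLOW.

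Cultured and tumour cells were not compared by a test, since the labels do not tie the tumours to a Ras population, and their values are set side by side. Cyp1b1 was between 7.01 and 85.1 CPM in the 9 cultured libraries and between 0.245 and 0.684 CPM in 7 of the 8 tumour cell libraries. The exception was the peritoneal tumour cells of mouse 1, at 4.68 CPM. Cyp1a1 went the same way, with at least 0.932 CPM in culture and at most 0.16 CPM in tumour cells. Ahr was at 149.8 to 293.1 CPM in tumour cells and at 40.1 to 93.9 CPM in culture. Its part in the values of Cyp1a1 and Cyp1b1 was not tested. Cyp27a1, the mitochondrial sterol 27-hydroxylase, was between 0.395 and 9.51 CPM in culture and between 9.78 and 31.8 CPM in tumour cells. Cyp2s1 was at 28.5 ± 4.84 and 38.7 ± 13.1 CPM in liver and peritoneal tumour cells (SD, n = 4), overlapping the BMEL WT libraries, and every tumour cell library was above every Ras library. The share of all genes that separate cultured from tumour cell libraries is not reported here.

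**Figure D3:**
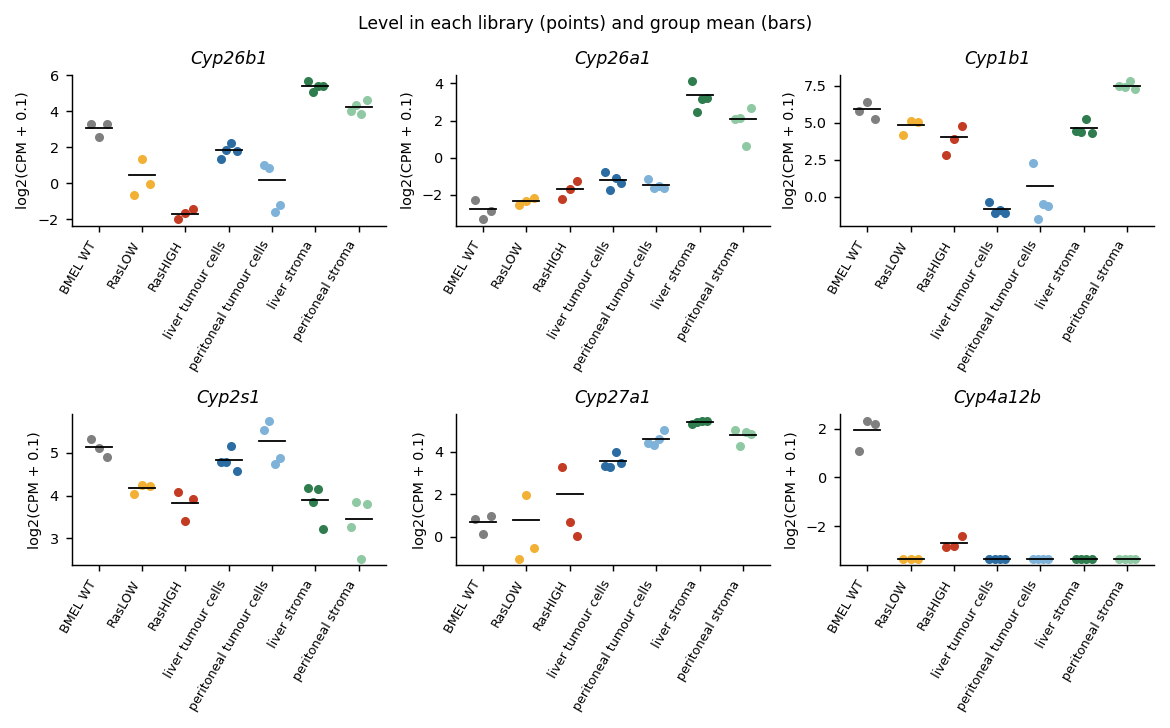
Level of 6 Cyp genes in each library (points) and the group mean (bars), as log2(CPM + 0.1), in the 7 groups of 3 or 4 libraries, each panel with its own axis range. Cyp1b1 is lowest in tumour cells and highest in peritoneal stroma, and Cyp4a12b is seen in BMEL WT. Cyp27a1 is higher in every sorted library than in any cultured library, by a small margin at the closest, and the share of all genes that do so is not reported here.

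The tumour cells of the 2 sites were compared to ask how the organ bears on cells of the same origin. Of 20 Cyp genes tested, 1 was lower in liver tumour cells and none was higher, against 3.2% of all genes tested (1.33% higher and 1.87% lower). By the thresholds of the study for sorted cells (an unadjusted p under 0.05 and a log2 fold change beyond 1), 6 passed against 3.52% of all genes. Cyp27a1, which opens the acidic route of bile acid synthesis (1:74760148-74784464 on NCBIM37, plus strand), was at 9.79, 9.78, 15.8 and 10.98 CPM in the liver and at 21.2, 19.8, 24.4 and 31.8 CPM in the peritoneum of mice 1 to 4. Each mouse had more in the peritoneum, and the groups did not overlap, as for 1587 of all 13074 genes tested. It was 2.11-fold higher in the peritoneum (liver against peritoneum -1.08 ± 0.19, adjusted p = 0.0204, edgeR). With the mouse as a block the adjusted p was 0.0377 (edgeR), without the liver library of mouse 2 or of mouse 4 it was 0.0859 or 0.0724, and with all 25 libraries in 1 fit it was 0.314.

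Cyp27a1 was at 24.3 ± 5.37 CPM in peritoneal tumour cells and at 27.4 ± 5.85 CPM in peritoneal stroma (SD, n = 4) and was not called between them (log2 fold change -0.11 ± 0.2, adjusted p = 0.628, edgeR), while the summed leukocyte and macrophage markers were between 21.4 and 191 CPM in those tumour cells and between 4080 and 5420 CPM in that stroma. DESeq2 called 4 members between the tumour cells, adding Cyp26b1, Cyp2d26 and Cyp2j6 to Cyp27a1. The share of all genes that DESeq2 called is not reported here. Cyp26b1 was at 2.49, 3.48, 4.7 and 3.39 CPM in the liver and at 1.97, 1.71, 0.23 and 0.332 CPM in the peritoneum, without overlap (1.72 ± 0.61, adjusted p = 0.148, edgeR). Cyp2d26 was at 0.823 ± 0.076 and 2.17 ± 0.894 CPM, and Cyp2j6, an arachidonic acid epoxygenase, at 10.1 ± 0.77 and 14.1 ± 1.74 CPM (adjusted p = 0.0693 and 0.0576, edgeR). The peritoneal tumour cell library of mouse 1, where Cyp1b1 stood apart, held 1523 CPM of summed fibroblast markers against 220 to 339 CPM in the other 3. Its leukocyte markers summed to 191 CPM against 21.4 to 29.3 CPM. Across the tumour cells, 6 of 8 fibroblast markers were lower and 5 of 9 hepatocyte markers tested were higher in the liver. Endothelial markers summed to 74.7 to 230 CPM in liver tumour cells and 54.4 to 236 CPM in peritoneal tumour cells, with none of 5 called. In cultured cells this sum was at most 10.7 CPM. The part of these cell types in the values was not tested.

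Among retinoid handling genes 1 of 11 tested was higher in liver tumour cells and none lower. This was the retinal reductase Dhrs3, at 69.9 against 22.6 CPM (1.62 ± 0.27, adjusted p = 0.0199, edgeR). Por was higher in liver tumour cells, at 439.6 against 317.7 CPM (0.46 ± 0.11, adjusted p = 0.0465, edgeR), the only call among 8 redox partners. Of 10 regulators 2 were lower, Hnf4a at 222.2 against 314.5 CPM and the oxysterol receptor Nr1h3 at 3.1 against 5.65 CPM (adjusted p = 0.033 and 0.0484, edgeR). Gstm1 was lower, at 2.26 against 4.79 CPM (adjusted p = 0.0479, edgeR). Over all genes tested, 3.2% were called between the tumour cells of the sites.

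Between the stromata of the 2 sites 15 of 26 Cyp genes were called, 8 higher and 7 lower in the liver, against 33.4% of all genes tested (14.9% higher, 18.5% lower). By the thresholds of the study 8 passed against 14.3%. In these mixtures of cells, fewer cells of a type and less RNA per cell cannot be told apart. The summed fibroblast markers were between 4130 and 8360 CPM in liver stroma and between 54700 and 83100 CPM in peritoneal stroma, with all 8 lower in the liver. Leukocyte and macrophage markers summed to 5340 to 6430 CPM and 4080 to 5420 CPM, with 3 of 6 higher in the liver, and Kupffer cell markers to 212 to 567 CPM and 5.58 to 35.2 CPM, with 4 of 5 higher. Hepatocyte markers were higher in the liver for all 10 tested of 15, with Alb at 13.7 to 121.8 CPM against at most 0.0347 CPM. Epithelial markers were higher in the liver for 4 of 6, with sums of 1130 to 1450 CPM against 591 to 997 CPM. Endothelial markers summed to 512 to 1050 CPM in liver stroma and 334 to 631 CPM in peritoneal stroma, with 2 of 5 higher in the liver. The part of these cell types in the differences below was not tested.

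Cyp1b1 and Cyp7b1 had the smallest adjusted p among the members. Cyp1b1 was at 21.3, 20.8, 36.8 and 19.7 CPM in liver stroma and at 174.3, 172.2, 219.0 and 152.9 CPM in peritoneal stroma, 7.54-fold higher in the peritoneum (liver against peritoneum -2.91 ± 0.21, adjusted p = 1.01e-05, edgeR). Cyp7b1, an oxysterol hydroxylase of bile acid and steroid metabolism, was at 7.72, 6.14, 5.77 and 5.04 CPM and at 22.8, 36.0, 29.1 and 26.5 CPM (-2.25 ± 0.18, adjusted p = 1.65e-05, edgeR). Neither overlapped between sites, as for 5144 of all 14755 genes tested. Cyp39a1 and Cyp46a1, the cholesterol hydroxylase of neurons, were also lower in liver stroma, at 2.29 ± 0.094 against 3.97 ± 0.494 CPM and at 0.829 ± 0.224 against 1.86 ± 0.432 CPM (adjusted p = 0.00442 and 0.0108, edgeR), and with all 25 libraries in 1 fit both calls were lost (adjusted p = 0.124 and 0.114, edgeR). Thus 3 of 6 sterol members tested were lower in the liver and 1, Cyp27a1, was higher.

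Cyp27a1 was at 38.95, 41.3, 43.6 and 43.6 CPM in liver stroma and at 32.2, 19.03, 30.4 and 28.2 CPM in peritoneal stroma (0.56 ± 0.14, adjusted p = 0.0144, edgeR), the opposite order to that of the tumour cells. With all 25 libraries in 1 fit the adjusted p was 0.431 (edgeR). The difference between these effects was not tested. Cyp4f16 and Cyp4f18, of a subfamily that hydroxylates leukotrienes, were higher in the liver, Cyp4f16 at 56.7 ± 7.33 against 39.8 ± 2.41 CPM (adjusted p = 0.00658, edgeR) and Cyp4f18 at 98.1 ± 33.9 against 57.8 ± 7.32 CPM (adjusted p = 0.0288, edgeR). The Cyp4f18 ranges overlapped. Its call was lost in 6 of 14 alternatives, mostly on leaving out a single library, with the highest adjusted p 0.0864 (edgeR). Cyp4v3, a fatty acid hydroxylase, was at 30.0 ± 1.68 and 29.8 ± 5.03 CPM (-0.04 ± 0.12, adjusted p = 0.84, edgeR).

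Both retinoic acid hydroxylases had their highest group mean in liver stroma. Cyp26b1 was at 50.6, 34.0, 41.9 and 41.8 CPM in the liver and at 16.4, 20.4, 14.3 and 24.9 CPM in the peritoneum (1.1 ± 0.18, adjusted p = 0.00145, edgeR, or 0.0595 with all 25 libraries in 1 fit), without overlap. Cyp26a1, whose promoter carries the repeat shown above, was at 17.1, 5.44, 8.98 and 9.2 CPM in the liver and at 4.15, 4.36, 1.42 and 6.4 CPM in the peritoneum. The 2 ranges overlapped in 1 library, and the value was 1.28 ± 0.45 (adjusted p = 0.051, edgeR), or 0.0499 with the mouse as a block. The other retinoid genes went mostly the other way. Of 13 tested, 8 were lower in liver stroma, among them the binding protein Crabp2 (0.5 against 3.59 CPM), the retinol dehydrogenase Rdh10 (29.3 against 67.5 CPM) and Aldh1a3 (14.7 against 48.6 CPM), and 1, Rara, was higher (205.1 against 142.4 CPM). Aldh1a2, a main source of retinoic acid in mesenchyme, was at 66.7 and 73.2 CPM and was not called. Over all genes tested, 18.5% were lower and 14.9% higher in liver stroma.

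Drug-metabolizing members made up 4 of the 15 calls. Besides Cyp1b1, Cyp2e1 was higher in liver stroma, at 2.1, 5.23, 2.36 and 0.793 CPM against 1.01, 0.422, 1.04 and 0.504 CPM (1.76 ± 0.55, adjusted p = 0.0328, edgeR), with overlapping ranges. Cyp2ab1 (2.93 ± 0.995 against 1.41 ± 0.296 CPM) and Cyp3a13 (2.68 ± 0.567 against 1.52 ± 0.411 CPM) were higher as well (adjusted p = 0.025 and 0.0444, edgeR). With the mouse as a block these 3 lost the call (adjusted p = 0.0542, 0.0629 and 0.0613, edgeR), and Cyp2d22, at 4.85 ± 1.71 against 8.3 ± 2.52 CPM, gained it (0.0571 to 0.00831). Cyp4x1, Cyp3a13 and Cyp4f18 also lost the call with the sequencing lane as a term. Of 14 alternatives, the call was lost in 11 for Cyp3a13, 8 for Cyp4x1, 7 for Cyp2ab1 and 5 for Cyp2e1. The remaining calls were Cyp4x1 (3.28 ± 0.776 against 1.82 ± 0.439 CPM), Cyp2j6, Cyp2j9 and Cyp20a1, of which Cyp4x1 was higher and the others lower in the liver. With all 25 libraries in 1 fit the calls of Cyp3a13, Cyp2ab1 and Cyp2j9 were lost (adjusted p = 0.106, 0.162 and 0.058, edgeR).

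**Figure D4:**
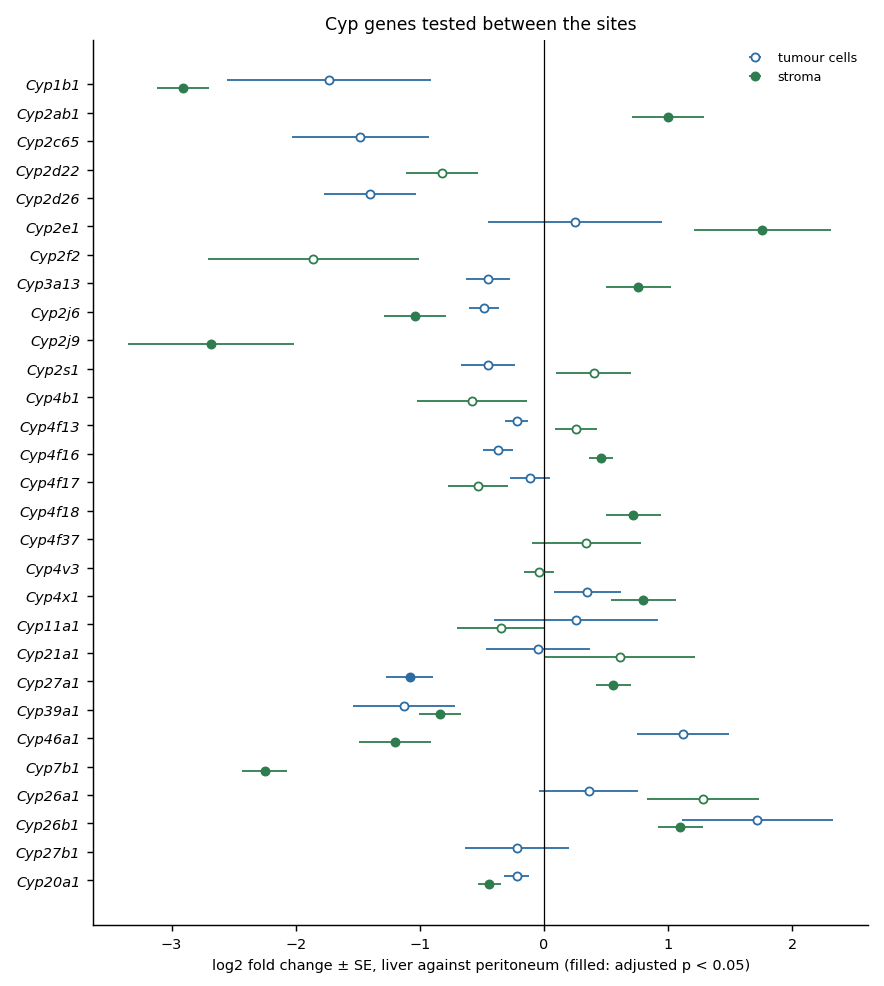
Log2 fold change with its SE of liver against peritoneum for each Cyp gene tested in tumour cells (blue) and stroma (green), with filled points at an adjusted p under 0.05. Cyp27a1 lies at -1.08 in tumour cells and at 0.56 in stroma, and Cyp1b1 and Cyp7b1 lie at -2.91 and -2.25 in stroma.

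Some hepatocyte members had counts in liver stroma and none in peritoneal stroma. Cyp3a11, the main hepatic Cyp3a enzyme, was at 0.263, 0.912, 1.06 and 0 CPM in the liver stroma of mice 1 to 4. In peritoneal stroma it was at 0. The mean of liver stroma was at least 3.97-fold above a floor of 3 counts in each library. This bound covers counting error only, not the spread between mice, and it does not hold for mouse 4. Cyp2c39, Cyp2a12 and Cyp2c70 likewise had 49, 38 and 31 counts in liver stroma and 0 in peritoneal stroma. None of these passed the filter on low counts. In the same libraries of mice 1 to 4, Alb was at 45.7, 121.8, 42.2 and 13.7 CPM, while the sum of the 15 hepatocyte markers, mostly Trf (1484 to 2363 CPM), was 1952, 1894, 2537 and 2045 CPM. This sum was between 1060 and 1630 CPM in peritoneal stroma. In liver tumour cells Alb was at 3.56, 23.4, 29.4 and 5.34 CPM and Cyp2e1 at 0.228, 1.05, 0.757 and 0.288 CPM. The part of hepatocytes in these values was not tested.

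The last comparisons set tumour cells against the stroma of the same site. In the liver 20 of 27 Cyp genes were called, 5 higher and 15 lower in tumour cells, against 77.8% of all genes tested (38.4% higher, 39.4% lower). In the peritoneum 24 of 29 were called, 8 higher and 16 lower, against 76.6% (39.5% higher, 37.1% lower). The median log2 fold change over the members tested was -1.88 and -0.92, against 0 and 0.07 over all genes.

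Members higher in tumour cells at both sites were Cyp3a13, Cyp2s1, Cyp2j6, Cyp4f17 and Cyp20a1. Cyp3a13 was at 20.2, 13.2, 18.6 and 11.3 CPM in liver tumour cells against 2.34, 2.35, 3.52 and 2.5 CPM in liver stroma (2.54 ± 0.22, adjusted p = 5.23e-07, edgeR), and at 24.8, 19.8, 22.5 and 18.8 CPM in peritoneal tumour cells against 1.53, 1.17, 1.28 and 2.09 CPM in the stroma there (3.88 ± 0.21, adjusted p = 1.46e-06, edgeR). Cyp2s1 was 1.88-fold higher in the liver and 3.73-fold higher in the peritoneum. The stroma still held epithelial markers, as given above, and their part in its Cyp3a13 and Cyp2s1 values was not tested. In the peritoneum Cyp2c65, Cyp2d26 and Cyp4f13 were higher too, Cyp2d26 at 2.17 ± 0.894 against 0.0671 ± 0.0822 CPM (4.97 ± 0.71, adjusted p = 0.000234, edgeR), or 6.22 without the stroma library of mouse 1.

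The members with the lowest values in tumour cells relative to stroma included Cyp4f18, Cyp4v3, Cyp7b1 and Cyp1b1. The summed leukocyte, fibroblast and Kupffer cell markers were lower in tumour cells as well, with all 6, all 8 and all 5 called in the liver and all 6, all 8 and 4 of 4 tested in the peritoneum, and their part in these values was not tested. Cyp4f18 was between 0.151 and 0.384 CPM in liver tumour cells and between 63.2 and 143.8 CPM in liver stroma, 454-fold higher in the stroma (-8.83 ± 0.35, adjusted p = 5.48e-10, edgeR). Cyp4v3 was at 0.18 ± 0.105 against 30.0 ± 1.68 CPM (-7.42 ± 0.25, adjusted p = 1.27e-10, edgeR). Cyp7b1 had 2 counts in liver tumour cells and 765 in liver stroma, a ratio of 453 with a counting interval of 125 to 3750. Cyp1b1 was 53.2-fold higher in liver stroma and 115-fold higher in peritoneal stroma than in the tumour cells. The peritoneal value was -6.85 on the log2 scale (adjusted p = 0.00011, edgeR), and -8.58 without the tumour cell library of mouse 1, where it was called as well. Cyp4b1, an enzyme of lung and vessels that activates furans, was at 9.52 ± 6.77 and 13.8 ± 5.32 CPM in the 2 stromata and at most 1.12 CPM in every tumour cell library.

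The retinoid members were lower in tumour cells at both sites. Cyp26b1 was 12.3-fold higher in liver stroma and 17.3-fold higher in peritoneal stroma than in tumour cells, and Cyp26a1 30.6-fold and 14.9-fold (all 4 called, adjusted p between 7.55e-09 and 0.000374, edgeR). Aldh1a2 was higher in the stroma by 123-fold and 63.7-fold, whereas Rbp4 and Rdh10 were higher in tumour cells, Rbp4 at 470.2 against 59.3 CPM in the liver and at 624.1 against 44.9 CPM in the peritoneum. Of the retinoid handling list, 3 were higher and 5 lower of 12 tested in the liver, and 3 higher and 8 lower of 13 tested in the peritoneum. Over all genes tested, 77.8% and 76.6% were called at these sites, in either direction. Cyp11a1, which starts steroid synthesis by cleaving the cholesterol side chain, was lower in tumour cells, at 0.86 ± 0.944 against 3.46 ± 1.44 CPM in the liver and at 0.727 ± 0.324 against 4.26 ± 1.63 CPM in the peritoneum (adjusted p = 0.00931 and 0.000441, edgeR). The liver value was -2 on the log2 scale, and -3.14 without the tumour cell library of mouse 1.

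**Figure D5:**
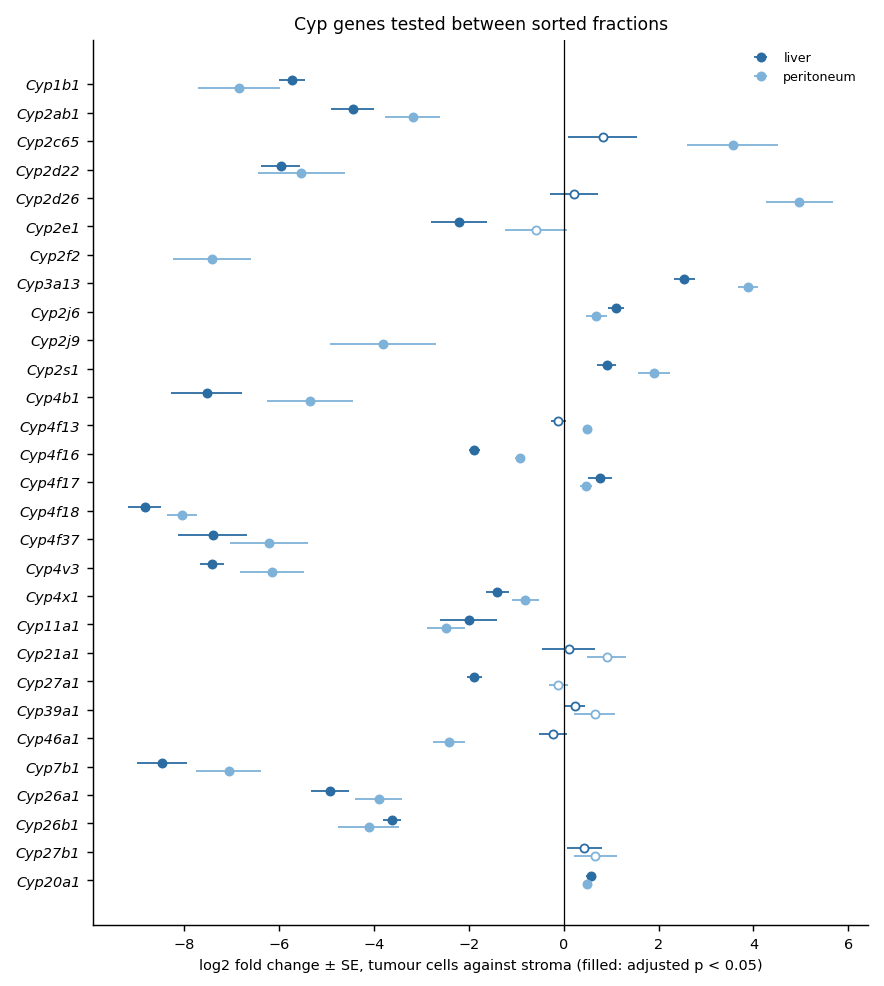
Log2 fold change with its SE of tumour cells against stroma for each Cyp gene tested in the liver (dark blue) and the peritoneum (light blue), with filled points at an adjusted p under 0.05. Cyp3a13 lies at 2.54 and 3.88, Cyp26b1 at -3.62 and -4.11, and Cyp4f18 at -8.83 and -8.04, while the Cyp2f2 point in the peritoneum rests on 0 counts in tumour cells and gives no size.

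The electron donors did not follow the Cyp genes that were lower in tumour cells. Of 8 redox partners 6 were higher and 1 lower in tumour cells at each site, with Por at 439.6 against 193.9 CPM in the liver (1.15 ± 0.12, adjusted p = 2.38e-06, edgeR) and 317.7 against 144.0 CPM in the peritoneum (1.21 ± 0.15, adjusted p = 0.000104, edgeR). The ferredoxin reductase Fdxr was the lower one, at 6.66 against 11.8 CPM and 7.69 against 10.8 CPM. Of 12 regulators tested, 3 were higher and 7 lower in tumour cells at each site. Of all genes tested, 77.8% were called in the liver and 76.6% in the peritoneum, in either direction, so calls were common in any list. Hnf4a and Nr1h4 were among those higher, and Nr1h3 among those lower, at 3.1 against 21.9 CPM in the liver and 5.65 against 10.9 CPM in the peritoneum.

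Some members share sequence with neighbours. Exons of Cyp4v3 overlap those of Klkb1 on the same strand, and exons of Cyp2s1, Cyp2u1, Cyp4x1, Cyp4f18, Cyp2f2 and Cyp24a1 overlap genes on the other strand. The strand setting of the counting is not stated in the sources used here, so reads of these genes and their partners cannot be told apart. The same holds for reads shared by close copies in the Cyp2c, Cyp2d, Cyp2j, Cyp3a, Cyp4a and Cyp4f clusters.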

How the data were processed

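RNA from 9 cultured and 16 sorted samples was prepared with a NuGEN mRNA-seq kit and sequenced on an Illumina HiSeq instrument. The authors deposited raw read counts per gene, not normalized. The study's methods name TopHat2 and mm9, whereas the submitters' processing notes list FastQC, Bowtie 0.12.2, mm8 and mm10 without a role. The counting program, strand setting and treatment of reads shared by gene copies are not given in the sources used here. Reads of close copies may therefore be misplaced, and coordinates are those of the annotations named with them.

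Here, groups followed the labels. Each pair of groups was fitted by itself with edgeR 4.0.16 (R 4.3.3, limma 3.58.1), using filterByExpr with a minimum count of 10, TMM and the quasi-likelihood test, with p-values adjusted by Benjamini-Hochberg across every gene tested and a call at an adjusted p under 0.05. SEs are of the log2 fold change. Counting intervals are exact at 95% and floors are 3 counts per library. Alternatives were DESeq2 1.42.0, RLE scaling, no filter, all 25 libraries in 1 fit, a replicate block, the thresholds of the study, leaving out each library and lane 4 alone. The lane as a term was added after the data were seen. On simulated counts, 193 of 200 genes changed by 2 on the log2 scale were recovered for RasHIGH against BMEL WT (12331 genes, 11 false calls) and 195 of 200 between the tumour cells (13074 genes, 19 false calls). These counts had a spread set by the mean level alone, without lane effects or outlying libraries. They therefore do not show recovery of smaller changes, or the rate of false calls where such effects are present.

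Mouse numbers pair the sorted samples because they mark the same animal. The deviations of paired samples correlated at a mean r of -0.04 between tumour cells, 0.18 between stromata, and 0.22 and 0.19 between tumour cells and stroma of liver and peritoneum.

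The members and lists were chosen with earlier results of these data known. Genes named were those fixed for their role, up to 8 per direction and comparison among those called with at least 1 CPM in a group, and the 3 highest of each group. Values of some listed genes are not reported here.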

Additional observations from a re-analysis of the deposited data

Results flagged for a closer look

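In 5 of 69 groups of 4 libraries, 1 library stood apart from the other 3 by a gap of at least 0.829 of the group's range, which chance gives in about 1 group of 20. Cyp1b1 was at 4.682 CPM in the peritoneal tumour cells of mouse 1 against 0.2446 to 0.5952 CPM in the others, and at 36.76 CPM in the liver stroma of mouse 3 against 19.72 to 21.26 CPM. Cyp3a13 was at 3.519 CPM in the liver stroma of mouse 3 against 2.336 to 2.499 CPM. Cyp39a1 was at 12.59 CPM in the peritoneal tumour cells of mouse 4 against 3.552 to 3.913 CPM. Cyp4x1 was at 1.232 CPM in the liver tumour cells of mouse 1 against 1.272 to 1.28 CPM, a gap of little size.

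For 3 members every mouse had less in the liver than in the peritoneum in tumour cells and more in the liver in stroma. The mean difference in tumour cells, liver minus peritoneum as log2(CPM + 1), was -0.44 for Cyp3a13, -0.34 for Cyp4f16 and -1.01 for Cyp27a1. In the stroma the differences of the 4 mice lay between 0.18 and 0.99 for Cyp3a13, between 0.17 and 0.62 for Cyp4f16 and between 0.27 and 1.08 for Cyp27a1. In tumour cells Cyp3a13 and Cyp4f16 were not called (adjusted p = 0.196 and 0.113, edgeR). The stroma call of Cyp3a13 was lost in 11 of 14 alternatives. The members were picked for this pattern, and the share of all genes that show it is not reported here. These opposite differences were not themselves tested.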

How the results depend on the processing

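Members called in the main fit of a comparison were recomputed there under the alternatives. Of these 969 values, 873 kept their direction and call, 96 kept the direction and lost the call, and 0 reversed. Members not called in the main fit are left out, so calls gained are not counted and the stability of their values is not covered. The number of Cyp genes called for RasLOW against BMEL WT, 4 in the report, was 1 with the replicate number as a block, 0 within lane 4, and 1 to 8 without 1 library. For RasHIGH against BMEL WT, 7 in the report, it was 2 within lane 4 and 3 to 9 without 1 library. For RasHIGH against RasLOW, 0 in the report, it was 1 with all 25 libraries in 1 fit and 1 by the thresholds of the study. For the tumour cells of the 2 sites, 1 in the report, it was 4 by DESeq2, 0 with all 25 libraries in 1 fit, 6 by the thresholds of the study, and 0 to 2 without 1 library (0 without the liver library of mouse 2 or 4, 2 without the peritoneal library of mouse 1 or 3). For the stromata, 15 in the report, it was 8 by the thresholds of the study and 11 with all 25 libraries in 1 fit, where 7 of the 15 calls were lost (Cyp27a1, Cyp39a1, Cyp46a1, Cyp26b1, Cyp2j9, Cyp3a13 and Cyp2ab1), and for tumour cells against stroma of the liver, 20 in the report, it was 36 with no filter on low counts, which tests more genes (81 against 27). The cause of the other changes was not tested. Shares of all genes called are given only for the main fits and the thresholds of the study, so these counts have no such share beside them. In the cultured groups the samples share only a replicate number: same-numbered deviations correlated at a mean r of -0.13, 0.06 and -0.31 in the 3 comparisons, and the block left 1, 5 and 0 calls. With the mouse as a block the sorted comparisons had 1, 14, 20 and 24 calls, and beside the stroma members named in the report no call among the members changed. Within lane 4, BMEL WT is a single library, assumed to vary like the Ras libraries. Depth limits members under about 0.141 CPM, where 3 counts or fewer were read.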
